A study of Mus musculus with 6 samples.

Results

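NF-kB is a family of transcription factors that act as pairs of Rel proteins, and a set of inhibitors, several of which are their own target genes, holds them back. The genes described here are 10 of these: the Rel subunit genes Nfkb1, Nfkb2, Rela and Relb, the IkB genes Nfkbia, Nfkbib and Nfkbie, and the feedback genes Tnfaip3, Tnip1 and Birc3. They were chosen by symbol, each gene by its transcript cluster (the array's set of probes for a transcript) with the highest mean over the 6 arrays. Of the 10 genes, 9 were measured among the 18997 genes of the table, and Nfkb1 was not analysed here. Tnfaip3 and Tnip1 were picked on their measured rise in these data, each null clone against its own parent. Their levels and changes are therefore a description, and no p-value is given for the rise. For these genes a p-value is given only for the difference between the lines. The other 7 were included for their place in the pathway, with results of these data already known.

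In resting cells IkB proteins keep Rel pairs in the cytoplasm. Receptors of the tumour necrosis factor, interleukin 1 and Toll-like families activate the IkB kinase through ubiquitin chains, IkB is destroyed, and the freed pairs enter the nucleus and raise transcription of inflammatory genes and of their own inhibitors, such as Nfkbia and Tnfaip3. A slower arm processes the Nfkb2 precursor, which then pairs with Relb. Mesenchymal stem cells of bone marrow use the pathway to make chemokines and adhesion molecules in response to inflammation.

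RNA was measured on 6 Affymetrix exon arrays, 1 per monoclonal culture of mouse mesenchymal stem cells, all undifferentiated and kept in Alpha-MEM with 10% fetal bovine serum without any stimulus. Every clone traces to hindlimb marrow of a single Dicer flox/flox mouse, 1 year old, and carries SV40 large T antigen for immortalisation. Clones 6 and 12 (n = 2) carried Dicer, the ribonuclease that matures miRNAs, and their genotype is given as Dicer+/+ although the mouse was floxed. Their derivatives (n = 4), 6.8 and 6.9 from line 6 and 12.2 and 12.4 from line 12, were Dicer-/- after an adenovirus bearing Cre and GFP, sorting for GFP and a new round of cloning. No Dicer-carrying clone went through infection, sorting and recloning, so those steps and Dicer loss cannot be told apart. Sibling null clones share the single array of their parent, and p-values measure only the spread between these clones. The array titled 6.9 has a cell type label of clone 6.8, and the title was followed.

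All values below are log2 levels after RMA, an array normalisation, and a change is the Dicer-null level less the Dicer-carrying one, given ± its standard error in a limma fit that held the parental line as a block. Levels of different genes are not compared, because probes differ in brightness. Dicer1 itself was at 4.48 and 4.83 in the parents, 4.66 and 4.43 in the line 6 derivatives, and 4.47 and 4.64 in those of line 12. Its signal covers the whole gene and not the deleted part alone, so it checks no label. Of 10 measured mesenchymal markers 7 had a mean above 6, with array medians from 7.82 to 9.23, while Thy1, one of the defining ones, lay between 2.52 and 2.74. The 10 measured markers of blood cells had array medians from 2.71 to 2.99 and the 5 endothelial markers from 2.59 to 2.71. Array medians over all genes lay between 3.62 and 3.75. In these bulk cultures a smaller share of expressing cells and less RNA per cell cannot be told apart.

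The promoters of 5 members are shown because they hold letters that match the kappaB consensus, the DNA sequence that Rel pairs recognise. Windows of 300 bases, from 250 before the start site to 50 after it, came from RefSeq for mouse build GRCm38.p6, and the matches of either strand are in capitals. Each is read on the gene's own strand. They are Tnfaip3 at chr10:19015361-19015660 on the minus strand, Tnip1 at chr11:54962891-54963190 on the minus strand, Nfkbia at chr12:55492598-55492897 on the minus strand, Nfkbie at chr17:45555450-45555749 on the plus strand and Nfkb2, in the first of its 3 windows, at chr19:46304487-46304786 on the plus strand.
Tnfaip3: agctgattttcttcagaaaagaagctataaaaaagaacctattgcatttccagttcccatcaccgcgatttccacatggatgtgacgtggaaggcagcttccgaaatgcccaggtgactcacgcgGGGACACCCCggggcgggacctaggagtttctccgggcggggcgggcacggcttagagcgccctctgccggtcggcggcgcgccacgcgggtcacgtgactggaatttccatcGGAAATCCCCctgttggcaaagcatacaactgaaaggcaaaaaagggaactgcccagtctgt
Tnip1: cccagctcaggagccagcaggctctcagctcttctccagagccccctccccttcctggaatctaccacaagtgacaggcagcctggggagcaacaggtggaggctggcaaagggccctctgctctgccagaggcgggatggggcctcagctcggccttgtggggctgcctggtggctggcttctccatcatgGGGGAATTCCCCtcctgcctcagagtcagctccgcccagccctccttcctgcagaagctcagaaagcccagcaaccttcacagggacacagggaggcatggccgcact
Nfkbia: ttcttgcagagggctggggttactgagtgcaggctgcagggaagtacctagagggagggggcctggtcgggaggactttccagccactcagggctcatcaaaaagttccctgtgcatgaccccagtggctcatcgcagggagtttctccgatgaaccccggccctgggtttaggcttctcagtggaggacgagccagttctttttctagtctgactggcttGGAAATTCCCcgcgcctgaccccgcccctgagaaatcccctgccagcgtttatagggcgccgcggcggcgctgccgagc
Nfkbie: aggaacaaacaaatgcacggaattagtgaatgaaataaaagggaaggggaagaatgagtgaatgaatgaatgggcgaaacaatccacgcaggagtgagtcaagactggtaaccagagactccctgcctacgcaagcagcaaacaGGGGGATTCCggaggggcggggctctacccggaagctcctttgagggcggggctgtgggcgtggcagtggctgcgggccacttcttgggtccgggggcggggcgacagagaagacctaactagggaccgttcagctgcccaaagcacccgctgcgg
Nfkb2: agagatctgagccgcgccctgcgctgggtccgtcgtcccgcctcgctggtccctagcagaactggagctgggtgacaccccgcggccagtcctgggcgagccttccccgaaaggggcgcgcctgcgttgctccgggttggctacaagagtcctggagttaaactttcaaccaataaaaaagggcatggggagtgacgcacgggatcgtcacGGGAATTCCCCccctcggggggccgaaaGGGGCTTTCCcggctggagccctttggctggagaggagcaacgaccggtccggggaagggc

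Counted with 0 at the start base, the matches began at -125 and -12 in Tnfaip3, at -29 in Nfkbia and at -106 in Nfkbie. In Tnip1 overlapping matches on both strands began from -58 to -56, within a run of letters that reads the same on either strand. Nfkb2 had them at -39 and -38, which overlap, and at -11. The consensus was in 5 of the 8 members with a window (62.5%), against 1388 of 27025 genes (5.14%) over all promoters of that length. The narrower spelling GGGNNTTTCC, which overlaps the consensus without being wholly contained in it, was in Tnfaip3, Nfkbia and Nfkb2, 3 of 8 (37.5%), against 512 of all 27025 genes (1.89%). Nfkbib, Rela and Birc3 had no match in these letters, and Relb had no window in the table. Matches are a description of the letters and not evidence of binding, and most of these genes are textbook NF-kB targets.

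Tnfaip3 encodes A20, a ubiquitin-editing enzyme that takes apart the chains on which the IkB kinase is activated. Its log2 level was 5.16 in clone 6 and 5.18 in clone 12, against 6.67 in 6.8, 6.78 in 6.9, 7.06 in 12.2 and 6.80 in 12.4. All 4 null clones lay above both Dicer-carrying clones, and the null clones lay close together. Against its own parent each null clone was higher, by 1.51 and 1.62 in line 6 and by 1.88 and 1.62 in line 12, a mean of 1.66 ± 0.12 or 3.15-fold.

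Tnip1 encodes ABIN-1, a ubiquitin-binding partner of A20 that holds it at its substrates. Its level was 4.42 and 4.56 in clones 6 and 12, 5.82 and 6.06 in 6.8 and 6.9, and 6.78 and 6.47 in 12.2 and 12.4. The null clones of both lines lay above both parents, with those of line 12 the higher. The clones exceeded their parents by 1.40, 1.64, 2.22 and 1.91, line 6 first, a mean of 1.79 ± 0.19 or 3.47-fold. Of all genes tested, 112 of 18997 passed an adjusted p of 0.05 in limma (0.590%), 31 higher (0.163%) and 81 lower (0.426%). Tnfaip3 and Tnip1 were among the 31, but both were picked for this rise, so nothing is read from that. With any 1 of the 6 arrays left out neither was among the genes that passed.

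The genes whose pattern was closest to theirs were looked for among 5409 genes with a mean level of at least 6, by the Euclidean distance of mean-centred levels over the 6 arrays. For Tnfaip3 they were Ercc2, a helicase subunit of TFIIH, at a distance of 0.341, Parp8, an ADP-ribosyltransferase gene, at 0.368, and the kinase gene Stk38l at 0.387. For Tnip1 they were the retinol dehydrogenase gene Rdh10 at 0.415, the anchoring protein gene Akap13 at 0.502 and Tnfaip3 itself at 0.521. Tnip1 lies under the minimum level and so could not be found for Tnfaip3. Parp8, Stk38l and Tnfaip3 were under 6 in both parents and met that level only through the null clones. Tnfaip3 and Tnip1 were both picked for a rise, so nothing is read from their closeness. The 6 points of each profile share their arrays, and any gene stepping between the parents and null clones by a like size would be close.

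**Figure D1:**
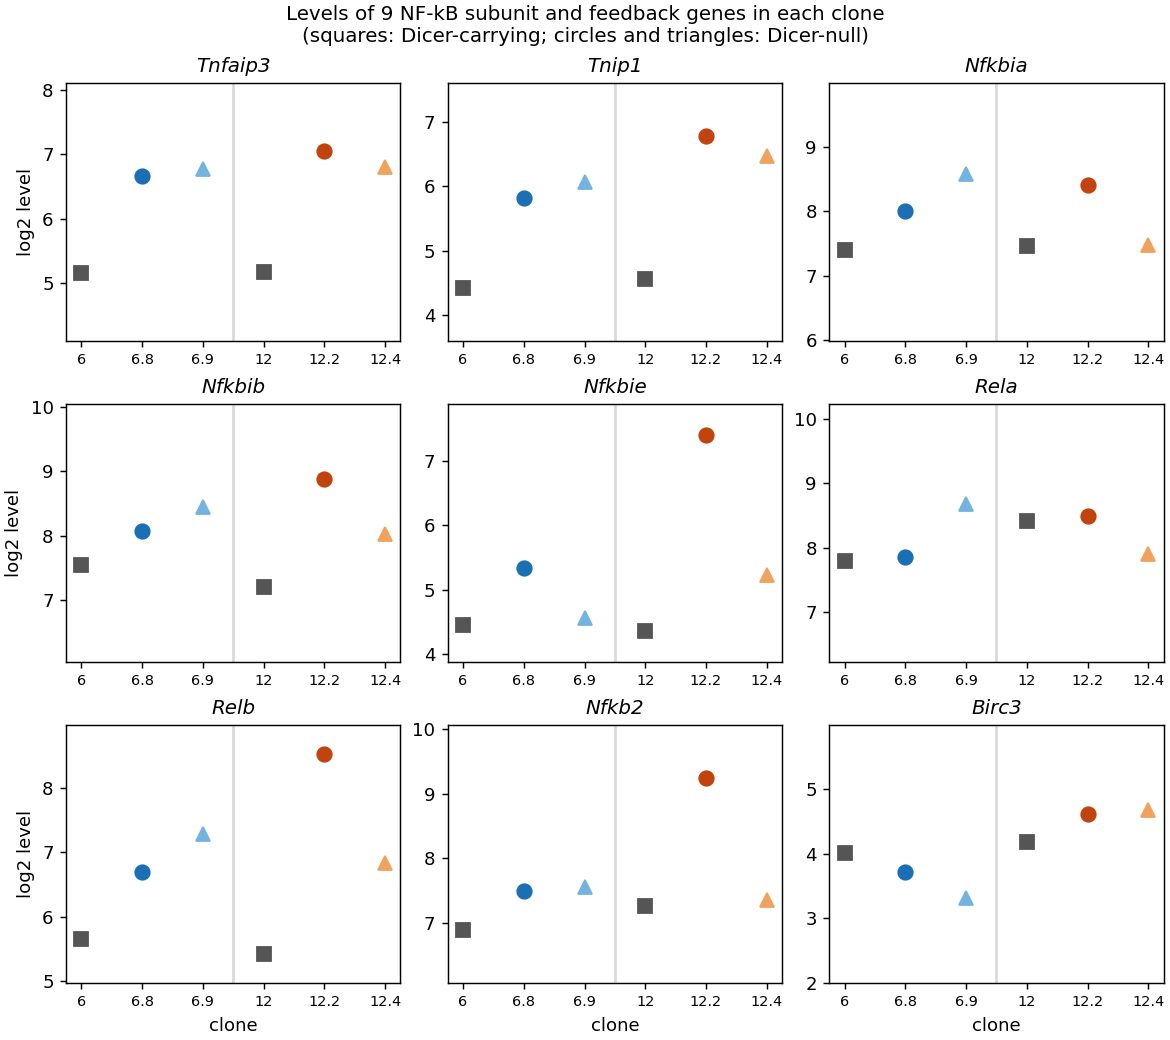
Log2 level (RMA, vertical axis) of the 9 measured genes on each of the 6 arrays, with squares for the Dicer-carrying clones and circles and triangles for the null clones, and a vertical span of the same size in every panel. Tnfaip3 and Tnip1 lie in separate bands for carrying and null clones, Relb in clone 12.2 reaches 8.53, and the Rela and Birc3 points of both groups overlap.

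Nfkbia encodes IkB-alpha, the inhibitor that is destroyed and made again in a fast feedback loop. Its level was 7.40 and 7.46 in clones 6 and 12, 8.0 and 8.58 in 6.8 and 6.9, and 8.41 and 7.48 in 12.2 and 12.4. Clones 6.8, 6.9 and 12.2 stood clear of both parents, and clone 12.4 lay beside its parent. The change of 0.68 ± 0.33 did not pass (limma adjusted p 0.493). With each array centred on the median of its chromosome 12 genes with a mean level of at least 6 the change was 0.17.

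Nfkbib, the gene of IkB-beta, which is lost and restored more slowly than IkB-alpha, was at 7.55 and 7.21 in clones 6 and 12, at 8.08 and 8.44 in 6.8 and 6.9, and at 8.88 and 8.03 in 12.2 and 12.4. Every null clone lay above both parents. The change was 0.98 ± 0.30, with an unadjusted p of 0.0241 (limma adjusted p 0.266).

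Nfkbie encodes IkB-epsilon, an inhibitor whose gene is itself induced by NF-kB. Its level was 4.45 and 4.36 in clones 6 and 12, 5.33 and 4.56 in 6.8 and 6.9, and 7.40 and 5.23 in 12.2 and 12.4. Clone 12.2 stood 2.07 above the next null clone, while 6.9 was only slightly above the parents. The change was 1.23 ± 0.73 (limma adjusted p 0.597), and without clone 12.2 it was 0.66.

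Among the subunits, Rela, which carries the activation domain of the main pair and is regulated mostly after translation, was at 7.79 and 8.42 in clones 6 and 12. It was at 7.85 and 8.67 in 6.8 and 6.9 and at 8.49 and 7.90 in 12.2 and 12.4. The groups overlapped fully, with the lowest value in a parent and the highest in a null clone. The change was 0.13 ± 0.34 (limma adjusted p 0.955), and it was -0.22 without clone 6 and -0.10 without clone 6.9.

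Relb, the partner of processed Nfkb2 in the slower arm, was at 5.65 and 5.42 in clones 6 and 12, at 6.70 and 7.28 in 6.8 and 6.9, and at 8.53 and 6.83 in 12.2 and 12.4. All null clones lay above both parents by about 1 log2 unit or more, and clone 12.2 was the highest. The change, 1.80 ± 0.55, had an unadjusted p of 0.0241 and a limma adjusted p of 0.266. Relb has 4 clusters on the array, whose changes from the brightest to the dimmest were 1.80, 1.02, 0.48 and -0.33. Their mean change was 0.74, so the size and the direction depend on the cluster. The brightest and the next had all null clones above both parents. In the third, clone 6.8 was at 4.35 against 4.46 in both parents, and in the dimmest only clone 6.9 lay above them.

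Nfkb2 encodes the precursor that is cut to the Relb partner and also acts as an inhibitor while uncut. Its level was 6.89 and 7.26 in clones 6 and 12, 7.49 and 7.56 in 6.8 and 6.9, and 9.25 and 7.36 in 12.2 and 12.4. Clone 12.2 stood 1.69 above the next null clone, and 12.4 only slightly above its parent. The change of 0.84 ± 0.55 (limma adjusted p 0.642) was 0.40 without clone 12.2.

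Birc3 encodes cIAP2, a ubiquitin ligase at tumour necrosis factor receptors and an NF-kB target that protects from cell death. Its level was 4.01 and 4.19 in clones 6 and 12, 3.72 and 3.31 in 6.8 and 6.9, and 4.62 and 4.68 in 12.2 and 12.4. Null clones of line 6 lay below both parents and those of line 12 above both. The mean change was accordingly near 0, at -0.02 ± 0.26 (limma adjusted p 0.996). On chromosome 9, where Birc3 lies, the 257 genes with a mean level of at least 6 had a median change of -0.48, and with arrays centred on that chromosome the change of Birc3 was 0.50. Its close relative Birc2 was at 5.10 and 6.06 in clones 6 and 12, at 4.50 and 3.11 in 6.8 and 6.9, and at 3.36 and 6.33 in 12.2 and 12.4. Those levels are of the brightest of 3 Birc2 clusters, whose changes from the brightest to the dimmest were -1.26, -0.57 and 0.58. Whether probes of Birc2 and Birc3 pick up each other's transcripts was not tested.

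Of the 7 members not picked for a rise, none passed an adjusted p of 0.05 in limma. At an unadjusted p under 0.05, 2 of the 7 were higher, Nfkbib and Relb, and none was lower, against 5.82% of all genes higher and 7.90% lower. Dim genes vary less on these arrays, and of the 5409 genes with a mean level of at least 6, 633 were higher and 575 lower at that threshold. All 4 null clones lay above both Dicer-carrying clones for 5 of the 7, namely Nfkbia, Nfkbib, Nfkbie, Nfkb2 and Relb, against 9.44% of all genes, and below both for none, against 13.9%. Of the 5409 brighter genes 812 lay above both and 874 below both. The 5 rest on clone 12.4 in part: Nfkbia exceeded the higher parent there by 0.01 and Nfkb2 by 0.09, and 3 of the 7 were left after another quantile normalisation or with arrays centred by chromosome. Relb counts by its brightest cluster, and not all of its clusters had every null clone above both parents. The median change of the 7 was 0.84, against -0.02 over all genes. The members were chosen as a family with results known, so these counts describe them and carry no test.

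**Figure D2:**
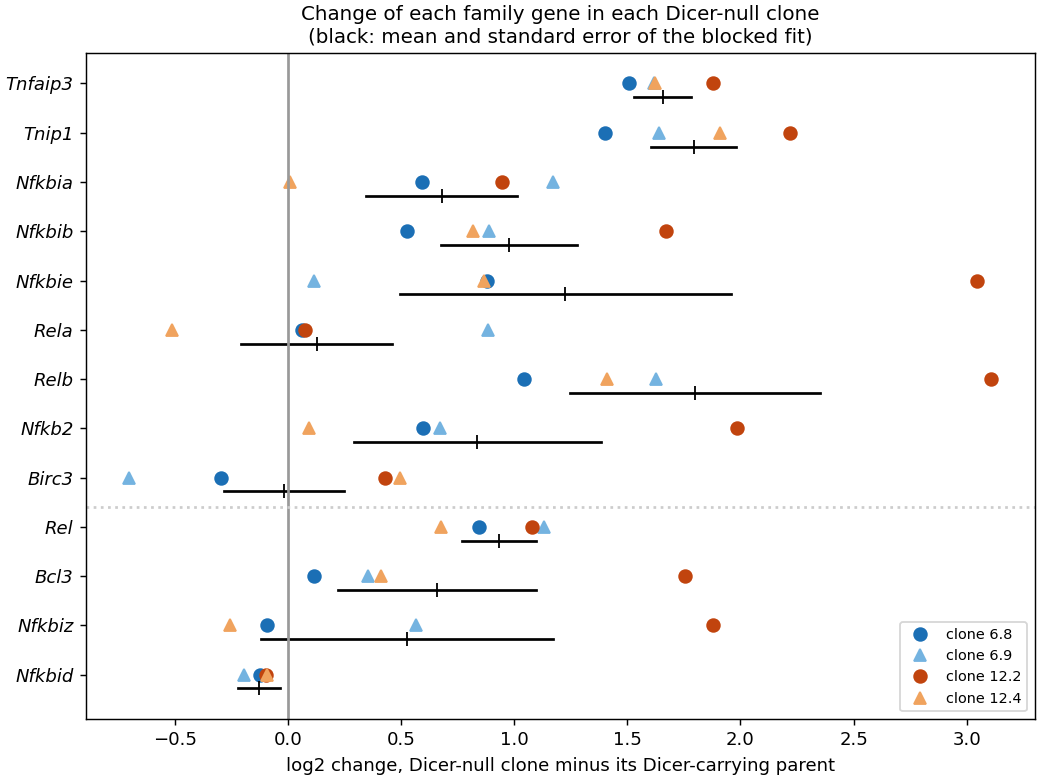
Log2 change (horizontal axis) of the 9 measured members and 4 other family genes, as each null clone minus its own parent (coloured points), with the mean change and its standard error from limma as a black tick and line under each row. Tnfaip3 runs from 1.51 to 1.88 and Tnip1 from 1.40 to 2.22, and Nfkbie, Nfkb2 and Relb have clone 12.2 far to one side, at 3.05, 1.99 and 3.11.

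The median distance from the lowest to the highest null clone was 1.10 for the 9 members, 0.43 over all genes and 0.81 over the 5409 genes with a mean level of at least 6. The range of Tnfaip3, at 0.39, was below all of these. That of Tnip1, at 0.96, was above the median of all genes and that of the 5409. Clone 12.2 was the highest null clone for 6 of the 9, Tnfaip3, Tnip1, Nfkbib, Nfkbie, Nfkb2 and Relb, against 31.8% of all genes, and it was not for Nfkbia, Rela and Birc3. Tnfaip3 and Tnip1, among the 6, were picked for their rise, and of the other 7 members clone 12.2 was the highest for 4. The median change of these 7 was 1.67 in clone 12.2 and 0.50 in its sibling 12.4. In line 6 it was 0.59 in clone 6.8 and 0.88 in 6.9. The 10 measured blood cell markers had a median level of 2.99 in clone 12.2, 2.92 in its parent and 2.71 to 2.93 on the other arrays, and their median change in clone 12.2 was -0.02. Clone 12.2 was the highest null clone for 3 of the 10. Of these, the defining marker Ptprc was at 2.72 in it and at 2.52 to 2.64 on the other arrays. Cd14, another of the 3, was at 4.87 in clone 12.2, at 4.24 in its parent and at 3.69 to 4.32 on the other arrays. The part of blood cells in these levels was not tested.

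The lines were compared by an interaction contrast, the change in line 12 minus that in line 6. None of the 9 members passed an adjusted p of 0.05 in limma, nor did any gene of the table (0%). At an unadjusted p under 0.05 Birc3 alone of the 9 passed, against 3.0% of all genes, with a difference of 0.96 ± 0.33 and an unadjusted p of 0.0482. For Tnfaip3 the difference was 0.19 ± 0.26 with an unadjusted p of 0.522, and for Tnip1 0.55 ± 0.32 with 0.168, in a limma fit with 2 residual degrees of freedom. Relb differed by 0.92 ± 1.17, Nfkbie by 1.46 ± 1.49 and Nfkb2 by 0.40 ± 1.23, with errors as large as or larger than the differences. For Nfkbib the difference was 0.54 ± 0.63, for Nfkbia -0.40 ± 0.73 and for Rela -0.69 ± 0.68. With errors of this size the contrast cannot show that the lines responded alike.

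**Figure D3:**
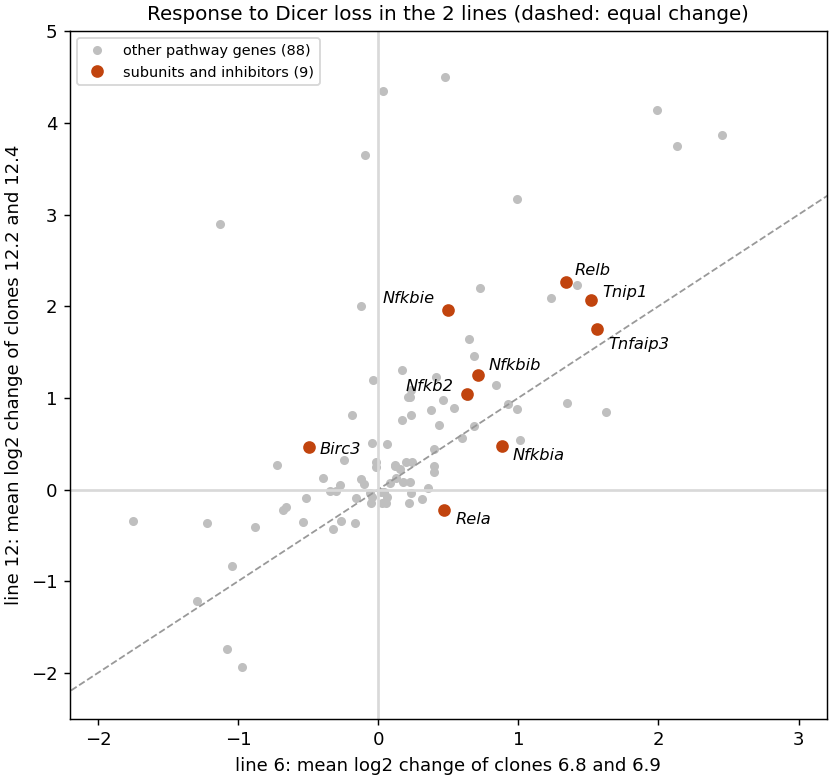
Mean log2 change of the null clones against their parent in line 6 (horizontal axis) and line 12 (vertical axis) for the 9 measured members, over 88 other family and pathway genes in grey, with a dashed line of equal change. Birc3 lies below 0 in line 6 and above 0 in line 12, and Tnfaip3 lies near the equality line.

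The rest of the family and of the pathway was taken from lists that were drawn up by function and not for how single genes moved, 88 measured genes in all. Rel, the subunit c-Rel, was at 5.05 and 5.16 in clones 6 and 12, at 5.90 and 6.18 in 6.8 and 6.9, and at 6.24 and 5.84 in 12.2 and 12.4. Every null clone exceeded both parents, and the change was 0.93 ± 0.17 (limma adjusted p 0.109). Of the nuclear IkB genes, Bcl3 lay above both parents in all null clones, and Nfkbiz and Nfkbid did not. Bcl3 was at 3.34 and 3.33 in the parents, at 3.46 and 3.70 in line 6 null clones, and at 5.08 and 3.74 in 12.2 and 12.4, a change of 0.66 ± 0.44 (limma adjusted p 0.651). Nfkbiz, at 5.70 and 5.37 in the parents and 5.60, 6.26, 7.25 and 5.11 in the null clones, had a change of 0.53 ± 0.65, which was 0.03 without clone 12.2, while that of Bcl3 was 0.31 without it. Nfkbid had a change of -0.13 ± 0.09 from levels near 2.82 that are close to the low end of the arrays. The adjusted p in limma was 0.859 for Nfkbiz and 0.689 for Nfkbid.

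None of the 84 measured genes in the 5 pathway lists passed an adjusted p of 0.05 in limma with the parental block and all genes. Vcam1 passed under 3 of 9 other settings and Pdlim2 under 2 of 8, and neither with any 1 null clone left out. At an unadjusted p under 0.05, 7 of 24 receptors and adaptors were higher and 1 lower, and 2 of 13 kinase and ubiquitin ligase genes were higher and 1 lower. Among other inhibitors 1 of 12 was higher and 1 lower, among cytokines and chemokines 1 of 16 higher and 0 lower, and among other target genes 4 of 19 higher and 2 lower. At that threshold 5.82% of all genes were higher and 7.90% lower. Of the 5409 genes with a mean level of at least 6, 633 were higher and 575 lower. The median change was 0.21 for receptors and adaptors, 0.12 for the kinases and ligases and 0.19 for other inhibitors. It was 0.40 for cytokines and 0.27 for other targets, against -0.02 over all genes. The 2 genes named below from each list had its largest changes among genes that moved 1 way in all 4 null clones. Their shared direction and their size follow from that choice and are a description.

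Upstream, the tumour necrosis factor receptor gene Tnfrsf1b was at 6.47 and 6.01 in clones 6 and 12 and at 7.71 and 7.69 in 6.8 and 6.9 and 8.56 and 7.64 in 12.2 and 12.4, a change of 1.66 ± 0.33 (limma adjusted p 0.132). All null clones were above both parents. Irak2, a kinase of interleukin 1 and Toll-like receptors, had a change of 1.24 ± 0.46 (limma adjusted p 0.351), with clone 6.9 the highest at 6.28. Tab3, an adaptor of the kinase TAK1, had a change of 1.15 ± 0.40 and Ikbke, an IkB kinase relative, of 1.07 ± 0.24, with adjusted p of 0.320 and 0.159 in limma.

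Among inhibitors outside the members, Pdlim2, reported in mouse cells to direct Rela to destruction, was at 4.67 and 5.09 in the parents and at 3.75, 3.43, 3.46 and 3.23 in the null clones. It was below both parents in all 4 null clones, and the change of -1.41 ± 0.21 had an adjusted p of 0.0796 in limma. Its mean level of 3.94 was under 4, among the dim genes, which limits what the change can show. Zc3h12a, a ribonuclease that degrades cytokine mRNAs, had a change of 0.69 ± 0.30 (limma adjusted p 0.429).

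Clone 12.2 was the highest null clone for 12 of 16 cytokines and 14 of 19 other targets. The share was 31.8% of all genes and 28.2% of those with a mean level of at least 6. These counts include dim genes, as 9 of the 16 cytokines and 5 of the 19 other targets had a mean level under 4. The 5 endothelial markers, all with a mean under 4, also had clone 12.2 as the highest null clone. The median change of the other targets was 1.42 in clone 12.2 and between -0.04 and 0.16 in the other 3. The chemokine gene Cxcl1 was at 5.12 and 5.24 in the parents and at 6.10 and 6.98 in line 6 and 8.76 and 6.19 in line 12 null clones. Cxcl10, at 5.45 and 4.41 in the parents, was at 7.32, 5.57, 10.2 and 4.94. Their changes of 1.83 ± 0.79 and 2.08 ± 1.64 had adjusted p of 0.422 and 0.727 in limma. The adhesion molecule gene Vcam1 was high in all null clones, at 6.26, 5.81, 8.01 and 7.69 against 3.58 and 3.98 in the parents, a change of 3.16 ± 0.37 (limma adjusted p 0.0548). The acute phase gene Saa3 was at 3.49 and 3.07 in the parents and at 5.58, 5.37, 8.30 and 6.12 in the null clones, a change of 3.06 ± 0.79 (limma adjusted p 0.204). Without clone 12.2 the changes were 1.22 for Cxcl1, 0.79 for Cxcl10 and 2.44 for Saa3.

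**Figure D4:**
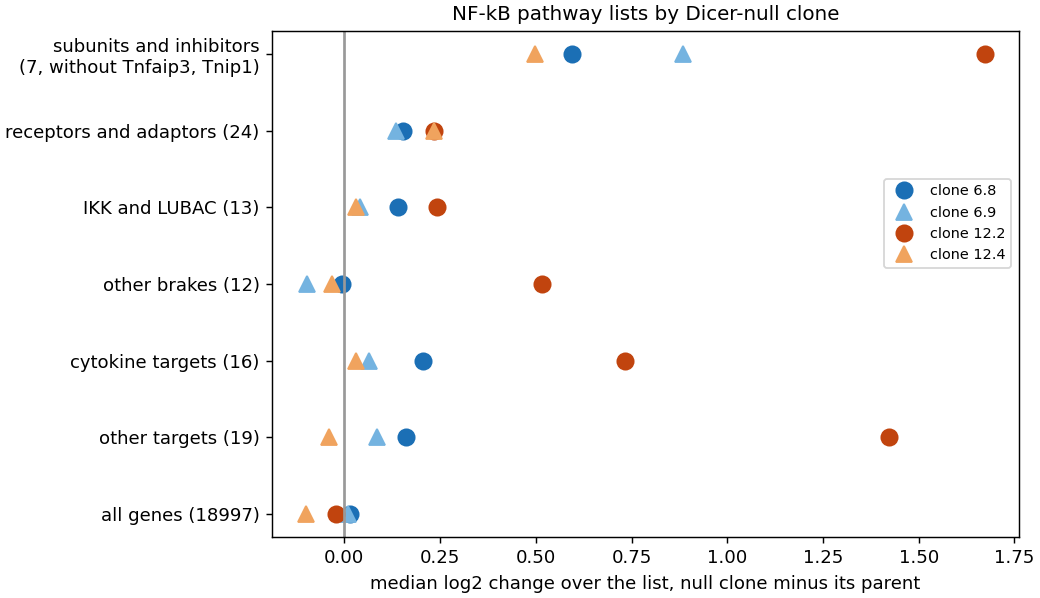
Median log2 change (horizontal axis) over the measured genes of each list in each null clone against its own parent (points), beside all genes tested. Clone 12.2 lies highest for the 7 members not picked for a rise at 1.67 and for the other targets at 1.42, and all genes lie near 0.

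Dicer matures miRNAs, some of which are reported to act on this pathway, and their mature forms are shown as examples of what Dicer makes. miRNAs were not measured here. The let-7 family is reported to repress Tnfaip3 in mouse macrophages and miR-125 to repress it in human lymphoma cells, while miR-146 is reported to repress IRAK1 and TRAF6 in human monocytes and Relb in mouse monocytes. The sequences are from RefSeq for GRCm38.p6, with the seed (bases 2 to 8) in capitals; let-7a and let-7f share a seed, and miR-146a and miR-146b share another.
mmu-let-7a-5p: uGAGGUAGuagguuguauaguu
mmu-let-7f-5p: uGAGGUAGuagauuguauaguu
mmu-miR-125b-5p: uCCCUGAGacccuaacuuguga
mmu-miR-146a-5p: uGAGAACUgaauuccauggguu
mmu-miR-146b-5p: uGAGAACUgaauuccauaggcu

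Levels of the reported targets are given as a description, and an action of these miRNAs on them was not tested. Tnfaip3, picked for its rise, and Relb, by its brightest cluster, were above both parents in all null clones, as given above. Irak1 and Traf6 fall outside the rule by which other genes were named and were chosen for this background after their values were seen. Irak1, a kinase of the interleukin 1 receptor, was at 6.79 and 6.75 in clones 6 and 12 and at 6.13 and 6.38 in 6.8 and 6.9 and 6.50 and 6.30 in 12.2 and 12.4, lower in all 4 null clones, with a change of -0.44 ± 0.13 (limma adjusted p 0.258). Traf6, the ubiquitin ligase downstream of it, was at 7.46 and 6.64 in the parents and at 7.82, 7.01, 8.10 and 7.57 in the null clones, and its change of 0.58 ± 0.40 had an adjusted p of 0.669 in limma.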

How the data were processed

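The deposited series table holds log2 values for 44343 transcript clusters on 6 arrays, made by the authors with Partek 6.5 and RMA per the submitters' processing notes. The genome build was not given in the sources used here. RMA brings arrays to a common distribution, so a change in total RNA would not be seen, and precision is limited by how few arrays there were. Of the clusters, 22781 were listed with 1 gene, and 22485 of these matched the RefSeq gene table of GRCm38.p6 by Entrez identifier. Where a gene had several clusters the brightest over the 6 arrays was used, which left 18997 genes.

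Levels were fitted in limma 3.58.1 (R 4.3.3) with Dicer loss and the parental line as a fixed block, on 3 residual degrees of freedom, and p-values were adjusted by Benjamini-Hochberg across all of them, with calls at 0.05. The block follows the derivation of the clones, and the clone labels share no replicate numbers. Line responses were compared by an interaction contrast of 4 cell means. The fits were tested on simulated data. The alternatives dropped or randomised the block, averaged sibling clones, averaged clusters, left out dim genes, rescaled the arrays, changed the variance model or left out each array.

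Besides the members and the other 4 family genes, 2 genes per pathway list were named, those with the largest change among genes whose 4 null clones differed from their parents in 1 direction, since no list had a gene past the threshold, and 3 genes closest in profile to each of Tnfaip3 and Tnip1. The members and lists were chosen with earlier results of these data known.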

Additional observations from a re-analysis of the deposited data

Results flagged for a closer look

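For 28 genes and 7 lists, the highest and lowest of the 4 null clones were compared with the nearest other clone by Dixon's ratio, at its 95% critical value. Chance marks about 1 in 20 groups, and 6 of 35 were marked, values that share the same 4 arrays. Clone 12.2 stood apart at the high end for Nfkb2, at a log2 level of 9.25, for Tnfrsf1b at 8.56, for the median change of the other inhibitors at 0.52 and for that of the other target genes at 1.42. Clone 6.9 stood apart for Irak2, at 6.28 on the high side, and for Nfkbid, at 2.64 on the low side, among levels near the low end of the arrays.

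Birc3 lay on opposite sides of the parents in the lines, below the parent in both null clones of line 6 and above it in both of line 12. The change in line 12 minus that in line 6 was 0.96, with an unadjusted p of 0.0482 and an adjusted p of 1.0 in the limma interaction contrast.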

How the results depend on the processing

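The fit called 112 genes, against 220 without the parental block, 15 with sibling null clones averaged, 233 with a trended and robust variance, and 0 to 17 with 1 array left out (12 and 13 without null clones 6.8 and 6.9). Of the members it called 2, Tnfaip3 and Tnip1, against 1 without the parental block, with parental line a random block, with clusters averaged or with arrays centred on their median, and 0 with siblings averaged or any 1 array left out. Averaging siblings or leaving out an array also leaves fewer residual degrees of freedom. Tnfaip3 and Tnip1 were picked for their rise, so nothing is read from the count of members called. The 5 members outside Tnfaip3 and Tnip1 with all null clones above both parents became 3 after another quantile normalisation or chromosome centring, both chosen after seeing the data, and 5 to 6 with 1 array left out. The small change of Rela turned to -0.22 without clone 6 and -0.10 without 6.9, and reached 0.47 without clone 12. Birc3, near 0, was at 0.046 after quantile normalisation, 0.065 with arrays centred, 0.50 with chromosome centring, 0.46 without clone 6, 0.14 without 6.9 and -0.50 without clone 12. The cause of these shifts was not tested. No member differed between lines at the adjusted threshold under any alternative run. Tnfaip3 ranged from 1.56 to 1.85 and Tnip1 from 1.52 to 2.07 over all alternatives. Vcam1 passed in limma with dim genes left out (adjusted p 0.023), with chromosome centring (0.029) and with a trended and robust variance (0.013). Being under 4 in both parents, it met the dim filter only through its null clones, so nothing is read from the first. Its adjusted p in limma was 0.118 without the parental block and 0.194 with a random block. Pdlim2 passed under 2 of the alternatives. With any 1 null clone left out, adjusted p in limma was 0.105 to 0.155 for Vcam1 and 0.126 to 0.169 for Pdlim2. Dim levels, such as those of Nfkbid and Pdlim2, limit what a change there can show.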
